A study of Mus musculus with 12 samples.

Results

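The Hox cluster genes encode homeodomain transcription factors and lie in 4 clusters, A to D, within which each gene carries a paralogue number that follows its place in the cluster. They were taken here as every gene of the array annotation named Hoxa, Hoxb, Hoxc or Hoxd with a number, measured by a probe set that names a single gene. These were 33 of the 18193 genes on the array, 9 in cluster A, 9 in B, 7 in C and 8 in D. Hox genes without such a probe set were not analysed here. Where several probe sets named the same gene, the one of highest mean log2 signal over the 12 arrays stood for it.

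In vertebrates the low-numbered Hox genes act toward the head and the high-numbered ones toward the tail and in the limbs. Blood stem cells use mainly genes of clusters A and B. Hoxa9 supports the growth of blood stem and progenitor cells and is a common partner in leukaemia, Hoxb4 enlarges stem cell pools when it is forced on, and Hoxb5 has been used to mark long-term stem cells. Hox proteins bind DNA with cofactors of the TALE class such as Meis1 and the Pbx proteins, and Trithorax and Polycomb complexes keep their clusters on or off.

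RNA came from haematopoietic stem cells (HSCs) sorted from mouse bone marrow, in 4 groups of 3 biological replicates. The mice were wild type or NrasG12D/+, in which 1 copy of the small GTPase Nras carries the G12D change, and all received doxycycline in water for 6 weeks and were followed for 12 weeks without it. In each genotype the sorted cells were GFP-, called cycling in the labels, or GFPhigh, called quiescent; groups are named by genotype and label (Nras GFPhigh, wild-type GFPhigh, Nras GFP- and wild-type GFP-). A doxycycline-driven GFP label is diluted by division. The mice's age, how many were pooled, what drives the GFP and the Nras allele, and the surface markers of the sort are not stated in the labels.

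The HSC genes Kit, Procr, Slamf1, Cd34, Mecom, Hlf and Mycn, the 7 of 9 fixed HSC markers matched, summed to 24670 to 41480.6 signal units per array. The values are signals of the MAS5 algorithm, scaled to a trimmed mean of 500 on each array. Their median per array ran from 44 to 129.6, and the number of arrays limits the precision. 4 arrays had array weights of 0.308 to 0.522, against 0.903 to 2.46 on the other 8, and are called uneven: wild-type GFPhigh replicate 2, Nras GFP- replicate 1, and Nras GFPhigh replicates 1 and 2. On Nras GFPhigh replicates 1 and 2 the 7 granulocyte markers summed to 42233.5 and 55192.2, against 459.1 to 12418.5 on the other 10 arrays, and the 7 stromal markers to 3345 and 2935.4, against 183.3 to 985.2. Nras GFPhigh replicate 3 lay inside those ranges, at 5720.3 and 915.1.

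RefSeq promoters show how unlike one another these genes are just upstream of the start. The 250 bases before the annotated start are given for Hoxa9 and Hoxa5, read high on all 12 arrays below, and for Hoxd13, the last gene of a cluster that was not. They lie at chr6:52227371-52227620 (minus strand), chr6:52204588-52204837 (minus strand) and chr2:74667975-74668224 (plus strand) of GRCm38.p6. Capitals mark every match, on either strand, to the core promoter motif TATAAA. They also mark matches to the promoter motif CCAAT. The Hox-Pbx type of site TGATTNAT was searched too. Overlapping matches run together.
Hoxa9: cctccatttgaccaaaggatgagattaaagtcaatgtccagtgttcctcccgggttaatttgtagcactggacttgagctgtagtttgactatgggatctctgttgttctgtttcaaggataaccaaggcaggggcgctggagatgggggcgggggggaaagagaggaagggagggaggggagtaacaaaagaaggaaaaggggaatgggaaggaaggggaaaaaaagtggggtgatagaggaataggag
Hoxa5: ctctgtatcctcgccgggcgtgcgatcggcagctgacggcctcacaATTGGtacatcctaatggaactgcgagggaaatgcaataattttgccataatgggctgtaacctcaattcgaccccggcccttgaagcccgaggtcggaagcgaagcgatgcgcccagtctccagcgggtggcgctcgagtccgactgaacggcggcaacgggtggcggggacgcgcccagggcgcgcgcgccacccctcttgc
Hoxd13: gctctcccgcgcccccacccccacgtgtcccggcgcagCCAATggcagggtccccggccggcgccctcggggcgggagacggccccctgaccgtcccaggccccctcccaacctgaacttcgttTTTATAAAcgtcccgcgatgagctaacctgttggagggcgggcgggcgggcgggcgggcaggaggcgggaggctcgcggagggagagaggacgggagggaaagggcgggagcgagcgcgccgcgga
The Hoxa9 stretch held 3 CpG dinucleotides and none of these motifs. The Hoxa5 stretch held 28 CpG and 1 CCAAT, and the Hoxd13 stretch 31 CpG, 1 CCAAT and 2 TATAAA matches that overlap on opposite strands. Over the 21 promoters that RefSeq gave for 19 of the 33 genes the median was 13 CpG, against 6 over all 32851 promoters. Among Hox genes read above the array median on all 12 arrays (5 genes, 6 promoters) it was 16, and among those above it on at most 2 arrays (12 genes, 13 promoters) it was 13, with ranges of 3 to 28 and 2 to 35. CCAAT was found in 52.4% of the 21 Hox promoters and 33.8% of all, TATAAA in 9.52% and 12.4%, and TGATTNAT in 9.52% and 2.82%. These are matches of letters in a window and say nothing on binding.

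Which Hox genes read high in HSCs differed by cluster and by place in the cluster. A low signal cannot be told from a probe set that reads its gene poorly. Of the 2 Hoxa10 probe sets, 1 read 252.5 to 2279.7 and the other 1.1 to 50.8. 7 Hox genes read above the median signal of the array on all 12 arrays: Hoxa3, Hoxa5, Hoxa9 and Hoxa10 in cluster A, and Hoxb3, Hoxb4 and Hoxb5 in cluster B. That is 7 of 33, while 33.3% of all genes did so. Hoxa7, Hoxb6, Hoxb7, Hoxb9, Hoxc4 and Hoxc6 did so on 3 to 9 arrays. These 13 genes were tested, 39.4% of the Hox genes against 66.4% of all genes, since a gene had to exceed its array's median on at least 3 arrays. They are not all members, and a low gene could pass because one group was high.

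In clusters A and B the tested genes sat in the middle. Of the 12 genes there with paralogue numbers 3 to 10, 11 were tested and 7 were above the median on every array, the untested one being Hoxa4, which exceeded the median on 2 arrays. None of the 3 genes numbered 1 or 2 and none of the 3 numbered 11 to 13 was tested. Over all 4 clusters 13 of 22 genes numbered 3 to 10 were tested, and the split by number was seen in clusters A and B, since cluster C gave only Hoxc4 and Hoxc6 and cluster D gave none.

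**Figure D1:**
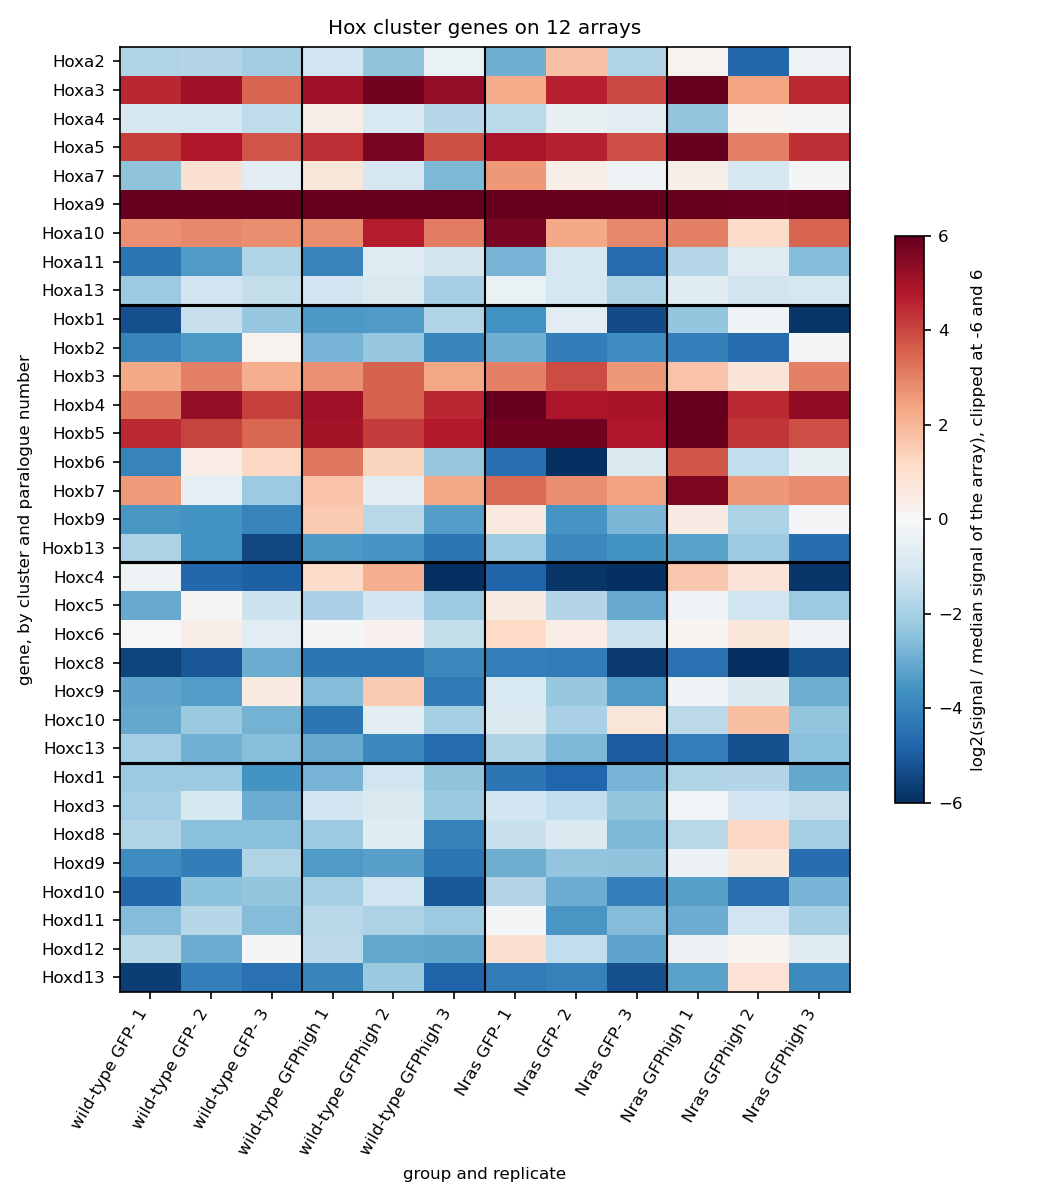
Signal of the 33 Hox genes on the 12 arrays, as log2 of the signal over the array's median (colour scale clipped at -6 and 6), with genes by cluster and paralogue number as rows and groups separated by vertical lines. Hoxa3, Hoxa5, Hoxa9, Hoxa10, Hoxb3, Hoxb4 and Hoxb5 are red throughout, and none of the 8 genes of cluster D is.

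In cluster A, the probe set that stood for Hoxa9 was steady. Its signal was 6621.7, 9958 and 7840.1 in wild-type GFP- cells, 7931.9, 7973.7 and 7711.4 in wild-type GFPhigh, 11860.9, 7939.1 and 6943.3 in Nras GFP-, and 11933.4, 7525.8 and 10578.7 in Nras GFPhigh. The groups overlapped in every comparison, and the highest array read less than 2 times the lowest. The difference between GFPhigh and GFP- over both genotypes, 6 arrays on each side, was 0.08 ± 0.16 on the log2 scale (± SE from limma, as after other differences; 95% interval -0.26 to 0.41), and that between Nras and wild-type over both populations was 0.22 ± 0.16 (-0.12 to 0.55). These were the narrowest intervals among the 13 tested probe sets. The second probe set of Hoxa9, above the array median on all 12 arrays, was less steady at 201.6 to 1246.2, and differed by 0.16 ± 0.52 by label and -0.55 ± 0.52 by genotype. With both averaged the genotype difference turned to -0.17.

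Hoxa3 varied far more. It read 2296.5, 2744.1 and 1076.9 in wild-type GFP- cells and 2999.4, 3147.1 and 4394.5 in wild-type GFPhigh. In Nras GFP- it read 206.2, 1334.8 and 1512.5, and in Nras GFPhigh 6381.3, 657.9 and 1929.5. All 3 wild-type GFPhigh arrays lay above all 3 wild-type GFP- arrays, by 0.87 ± 0.85 with an adjusted p of 1 by limma, and the Nras groups overlapped. Over both genotypes GFPhigh minus GFP- was 1.15 ± 0.60 (limma adjusted p 0.611). The gene has 4 probe sets, and the next brightest read 138.8 to 938.3 with a difference of -0.10 in the same comparison. Another read 49.9, 45.4 and 371.8 in Nras GFP- cells and 1488.2, 473.1 and 449.6 in Nras GFPhigh, which did not overlap. Its GFPhigh minus GFP- was 2.85 in Nras cells, -1.09 in wild-type cells and 0.88 over both genotypes.

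Hoxa10, which like Hoxa9 acts in myeloid progenitors, read 671.9, 581.5 and 655.6 in wild-type GFP- cells and 595, 1475.3 and 954.3 in wild-type GFPhigh. In Nras GFP- it read 2279.7, 252.5 and 701.1, and in Nras GFPhigh 435.1, 277.9 and 971.3. The highest and the lowest signals were both in Nras GFP-, and no pair of groups was separated. Hoxa7 exceeded the array median on 5 arrays and read 17.8 to 265.7 with all groups overlapping. Hoxa2, Hoxa4, Hoxa11 and Hoxa13 stayed at 3.9 to 173.1.

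Hoxa5, studied in blood for its part in lineage choice, gave the one pattern that split by GFP label in both genotypes, and did so on 1 of its 2 probe sets. The probe set that stood for the gene read 1795, 2241.6 and 1305.6 in wild-type GFP- cells, 1856.1, 2923 and 1611.1 in wild-type GFPhigh, 1313.2, 1293 and 1385 in Nras GFP-, and 5409, 1046.7 and 1825 in Nras GFPhigh. Its groups overlapped, and GFPhigh minus GFP- over both genotypes was 0.48 ± 0.38. Its suffix marks a probe set whose probes can also match other transcripts, which the second probe set does not carry.

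The second probe set of Hoxa5 read 328.8, 482 and 262.8 in wild-type GFP- cells and 528.5, 1229.6 and 1024.8 in wild-type GFPhigh. In Nras GFP- it read 215.3, 635.7 and 558.5, and in Nras GFPhigh 1875.2, 2735 and 1535.7. Every GFPhigh array lay above every GFP- array of its own genotype. With every probe set tested on its own, an alternative chosen after seeing the data, the difference was 1.33 ± 0.64 in wild-type cells (95% interval -0.05 to 2.72), 2.23 ± 0.64 in Nras cells (0.85 to 3.61) and 1.78 ± 0.45 over both (0.80 to 2.76), with a limma p of 0.00168 and an adjusted p of 0.354 over 23128 probe sets. It did not pass the threshold of 0.05, and 0% of those probe sets did. Of the 19 Hox probe sets so tested, 1 was higher without overlap in both genotypes, against 0.536% of all probe sets. Leaving out each array in turn gave 1.54 to 1.96 over both genotypes, and leaving out the 4 uneven arrays 1.23. The 2 genotypes' differences were themselves 0.90 apart (-1.06 to 2.85), so a larger difference in Nras cells was not shown. Nras GFPhigh replicate 3, whose granulocyte and stromal sums were inside the range of the other groups, read 1535.7 and was above all 9 arrays of the other groups. Nras GFPhigh replicates 1 and 2 read higher still. Some single markers of other cells were also high on some Nras GFPhigh arrays. Cxcl12, a stromal chemokine gene, read 1411.6, 601.8 and 700.9 on the Nras GFPhigh arrays against at most 239.4 on the other 9. Emcn, an endothelial gene, read 469.2, 1332.8 and 1283.8 against at most 1052.9, and so was not raised on replicate 1. Not all of the 7 stromal and 5 endothelial markers were raised so. Col1a2, also stromal, had its lowest signal of the 12 arrays, 16.4, on replicate 3. The 5 endothelial markers summed to 4586.8, 5937.6 and 4174.6 on the Nras GFPhigh arrays, against 227.8 to 5600.8 on the other 9. The part that these markers had in the Hoxa5 values was not tested.

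**Figure D2:**
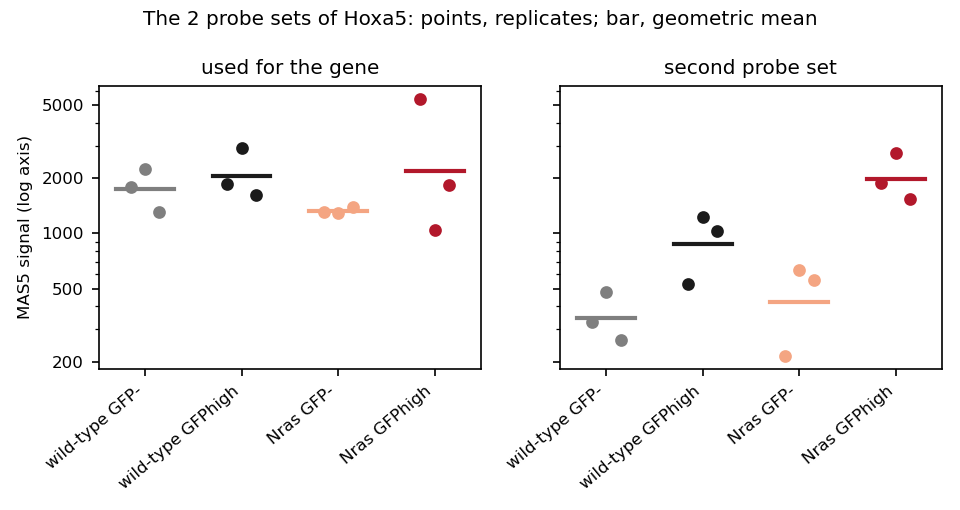
Signal (log axis) of both probe sets of Hoxa5 in the 4 groups, with a point for each replicate and a bar at the geometric mean. On the second probe set the 3 GFPhigh arrays lie above the 3 GFP- arrays within each genotype, and on the one used for the gene they overlap.

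In cluster B, Hoxb4 read 892.8, 3146.6 and 1619.3 in wild-type GFP- cells, 2996.6, 652.4 and 2653.5 in wild-type GFPhigh, 3658.8, 1489.3 and 2929.2 in Nras GFP-, and 6523.3, 2895.6 and 3444.5 in Nras GFPhigh. The 3 Nras GFPhigh arrays were high, and the lowest of them lay under the highest wild-type array. Nras minus wild-type over both populations was 0.91 ± 0.45 (95% interval -0.06 to 1.88, limma adjusted p 0.656), and -0.02 when both Hoxb4 probe sets were averaged. The second read 16.4 to 724.3 and differed by -0.95.

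Hoxb5 read 2233.1, 1333.6 and 1034 in wild-type GFP- cells, 2776.3, 1053.3 and 3064.4 in wild-type GFPhigh, 2468.3, 2915.4 and 2700.2 in Nras GFP-, and 5678.7, 2494.9 and 1266.2 in Nras GFPhigh. All 3 Nras GFP- arrays exceeded all 3 wild-type GFP- arrays, by 0.89 ± 0.56 with a limma adjusted p of 0.983, and the GFPhigh groups overlapped. GFPhigh minus GFP- over both genotypes was 0.24 ± 0.40 (95% interval -0.62 to 1.10), so these arrays neither show nor bound closely a difference of this marker by GFP label.

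Hoxb3, a neighbour of Hoxb4 and like it active in blood progenitors, read 496.1, 650.5 and 426 in wild-type GFP- cells, 581.2, 658.1 and 564.6 in wild-type GFPhigh, 355.8, 789.2 and 585.8 in Nras GFP-, and 174.9, 223.1 and 709.1 in Nras GFPhigh. Nras GFPhigh replicates 1 and 2, both uneven arrays, read lowest of the 12, and replicate 3 was among the highest.

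Hoxb7 read 592.7, 55 and 21 in wild-type GFP- cells, 287.5, 36.2 and 559.4 in wild-type GFPhigh, 456.7, 364.1 and 513.5 in Nras GFP-, and 2624.6, 779.3 and 616.3 in Nras GFPhigh. 3 of the 6 wild-type arrays were under 60, all 6 Nras arrays were above 360, and the Nras GFPhigh arrays were above all others. Nras minus wild-type over both populations was 2.45 ± 0.88 (95% interval 0.55 to 4.36), with a limma p of 0.0155 and an adjusted p of 0.594. With a pseudocount of 100 it was 1.54, and without the 4 uneven arrays 1.46, where the difference within GFPhigh cells went from 2.59 to 0.62. A probe set naming both Hoxb8 and Hoxb7 went the other way for Nras minus wild-type over both populations, at -1.54.

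**Figure D3:**
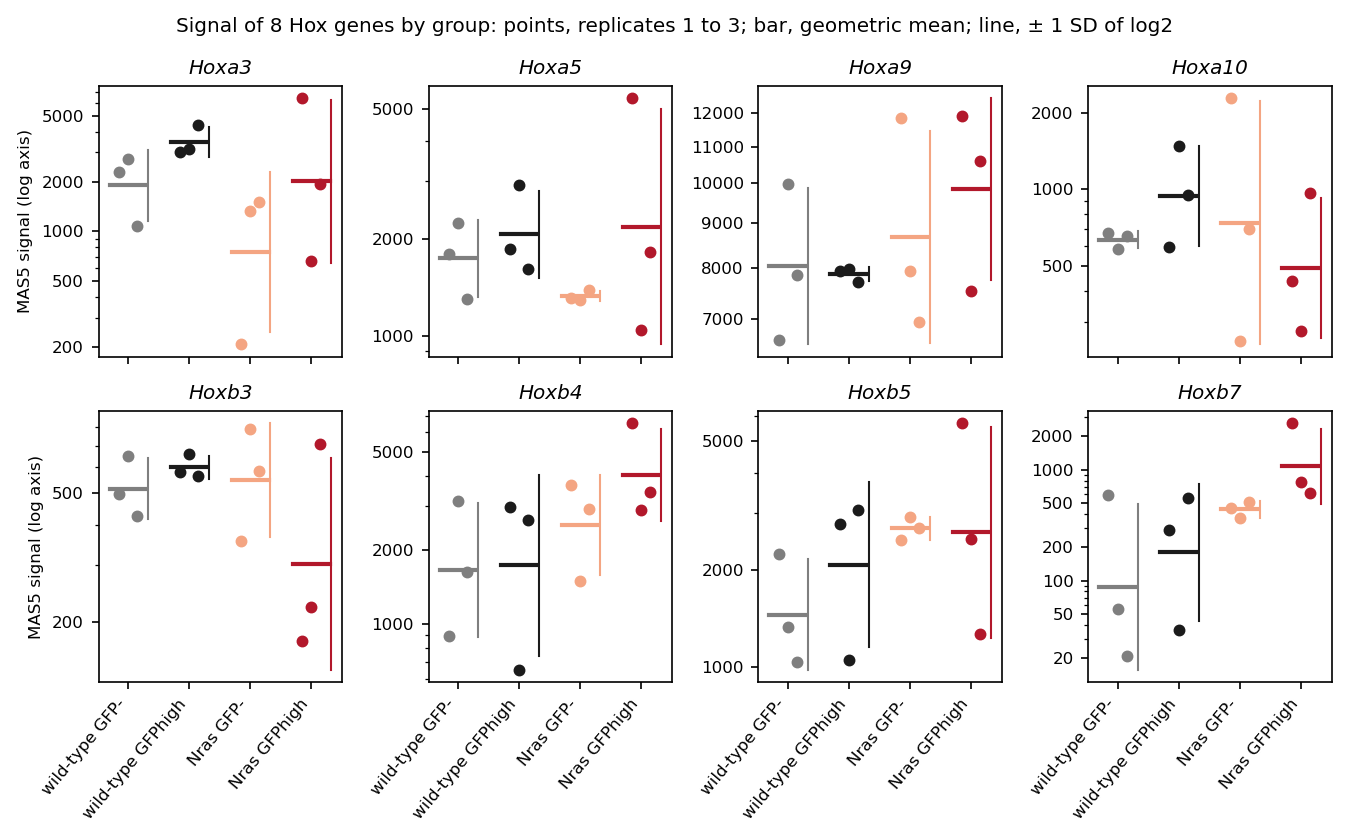
Signal (log axis, a scale of its own for each gene) of 8 Hox genes in the 4 groups, with a point for each replicate, a bar at the geometric mean and a line of 1 SD of log2 on each side. Hoxa9 stays between 6621.7 and 11933.4, while Hoxb7 has wild-type arrays as low as 21 and Nras arrays up to 2624.6.

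The remaining genes of cluster B and the 2 tested genes of cluster C read near or under the array median on most arrays. Hoxb6 read 6.2, 110.5 and 227.1 in wild-type GFP- cells, 785.8, 143.9 and 23.3 in wild-type GFPhigh, 1.9, 0.8 and 55 in Nras GFP-, and 697.3, 47.3 and 62.9 in Nras GFPhigh. Replicate 1 of each GFPhigh group was highest, wild-type GFPhigh replicate 2 and wild-type GFP- replicates 2 and 3 also exceeded their array's median, and the other 7 arrays were under it. GFPhigh minus GFP- was 3.11 ± 1.33 over both genotypes (limma p 0.0356, adjusted 0.55) and 4.87 ± 1.88 in Nras cells (limma p 0.0224, adjusted 0.351). Values this near 0 stretch the log2 scale, and a pseudocount of 100 brought these to 0.91 and 1.20.

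Hoxb9 read 8.9, 6.6 and 5.9 in wild-type GFP- cells, 256.6, 17.7 and 11.7 in wild-type GFPhigh, 66.7, 4.4 and 14.1 in Nras GFP-, and 76, 35 and 82.3 in Nras GFPhigh. The wild-type groups did not overlap, although 2 of the 3 GFPhigh arrays were also low. GFPhigh minus GFP- over both genotypes was 2.16 ± 0.93 (limma p 0.0368, adjusted 0.55), and 0.51 with the pseudocount of 100. Hoxc4 read 84.6, 3.1 and 3.2 in wild-type GFP- cells, 184.5, 258.8 and 0.7 in wild-type GFPhigh, 1.6, 0.9 and 0.9 in Nras GFP-, and 163, 227.1 and 1.5 in Nras GFPhigh. Replicates 1 and 2 of both GFPhigh groups were high and replicate 3 was near 0, so GFPhigh minus GFP-, at 3.45 ± 1.69 (limma adjusted p 0.59), rested on 4 arrays, and was 0.91 with the pseudocount. Hoxc6 read 39.6 to 217.7 with no order by group.

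The comparisons over all 13 tested genes were these. At an adjusted p under 0.05 by limma, 0 Hox genes passed in any of the 7 comparisons: GFPhigh against GFP- in wild-type, in Nras and over both, Nras against wild-type in GFP-, in GFPhigh and over both, and the interaction of genotype and label. Of all 12083 genes 0% passed in 6 of these, and 0.00828%, a single gene (Gem), passed for Nras against wild-type over both populations. At an unadjusted p under 0.05, in either direction, GFPhigh against GFP- gave 0 Hox genes in wild-type cells (2.2% of all genes), 1 in Nras cells (Hoxb6, against 12.2%) and 2 over both genotypes (Hoxb6 and Hoxb9, against 8.87%). Nras against wild-type gave 0 in GFP- cells (4.39%), 0 in GFPhigh cells (8.29%) and 1 over both populations (Hoxb7, against 7.78%), and the interaction gave 0 (4.68%). Counts of 0 to 2 among 13 genes are close to these shares.

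Groups without overlap were found for few genes. GFPhigh was above GFP- for Hoxa3 and Hoxb9 in wild-type cells, 2 of 13 where 5.3% of all genes were so, and for Hoxb7 in Nras cells, 1 of 13 where 6.7% were so. None was lower without overlap, where 5.81% and 6.21% of all genes were. Hoxb5 was higher in Nras GFP- than in wild-type GFP- (1 of 13, against 4.07%) and Hoxc4 lower (1 of 13, against 6.72%). The Hoxc4 signals so compared, 1.6, 0.9 and 0.9 against 84.6, 3.1 and 3.2, were all under the median of their array. Hoxb7 was higher in Nras GFPhigh than in wild-type GFPhigh (1 of 13, against 5.12%) and none lower (against 7.37%). None was separated in the averages over 6 and 6 arrays, where 0.232% (higher) and 0.339% (lower) of all genes were separated by label and 0.157% and 0.215% by genotype. These comparisons share groups and are not independent of one another.

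**Figure D4:**
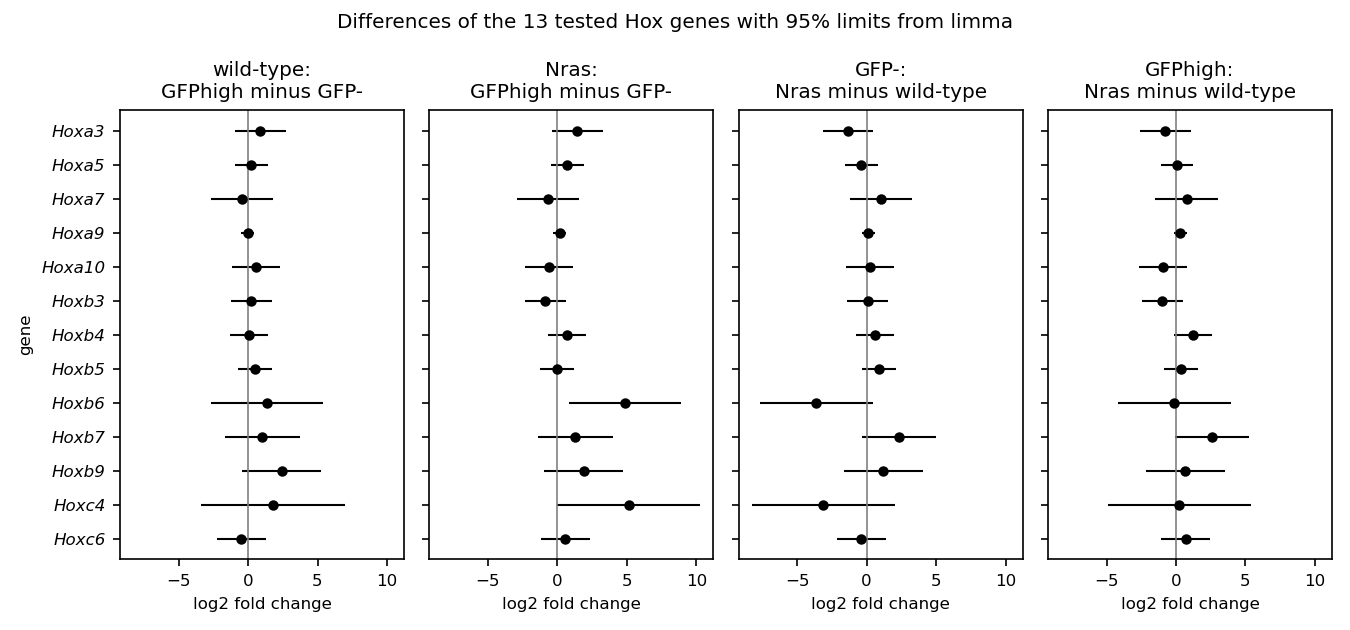
Log2 fold changes of the 13 tested Hox genes in 4 comparisons, as points with 95% limits from limma, against a line at 0. The limits are narrow for Hoxa9 and wide for Hoxb6 and Hoxc4, and cross 0 except for Hoxb6 in GFPhigh minus GFP- in Nras cells (0.81 to 8.92).

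More Hox genes had higher than lower values in GFPhigh cells, and the sizes were mostly within the spread. The 13 genes include some that passed the filter through the group where they were high. Hoxc4 exceeded the array median on 4 arrays, all GFPhigh, and Hoxb9 on 3, mostly GFPhigh. The counts and medians below hold these genes and are no test of a direction. In wild-type cells 10 of 13 were higher, with a median difference of 0.51, beside a median of -0.03 and 47.8% higher over all genes. In Nras cells 9 of 13 were higher, with a median of 0.68 beside 0.08 and 53.2%. With wild-type GFP- replicate 3 left out the value in wild-type cells fell to 0.08, and with wild-type GFP- replicate 1 or any 1 of the wild-type GFPhigh arrays left out to 0.26 to 0.27. That in Nras cells fell to 0.19 without Nras GFPhigh replicate 1. The median over both genotypes, 0.37 beside 0.02, stayed above 0 under the alternatives run, from 0.16 to 0.83. Cluster B gave 6 of 6 higher in wild-type cells (median 0.77) and 4 of 6 in Nras cells (0.99), and cluster A 3 of 5 in each (0.25 and 0.18). RNA of bulk samples cannot tell more RNA per cell from more cells that hold it.

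For Nras against wild-type the median of the 13 genes was 0.11 in GFP- cells (8 of 13 higher) beside -0.18 over all genes, and 0.32 in GFPhigh cells (9 of 13) beside -0.09. Over both populations it was 0.16 (7 of 13) beside -0.15. The value in GFP- cells became -0.25 without Nras GFP- replicate 1, and that in GFPhigh cells -0.10 without wild-type GFPhigh replicate 3 and -0.40 without Nras GFPhigh replicate 1. On the last of these arrays the 13 genes lay a median of 1.49 above their own means over the 12 arrays (log2). The other 11 arrays lay between -0.46 and 0.43. The SD within groups of this per-array median of the 13 genes was 0.50. Cluster B lay at 1.62 on Nras GFPhigh replicate 1, against -0.79 to 0.57 on the other 11. Cluster A lay at 0.48 there, inside the -0.78 to 0.70 of the other 11. Nras GFPhigh replicate 1 has raised granulocyte and stromal sums and a low weight, and the part of these in the Hox values was not tested.

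The 20 untested genes read 1.2 to 451.9, with a median of 15.5. To set a level for genes not used by these cells, 83 probe sets for smell, pheromone and taste receptors of sensory neurons were read on each array, and the 95th percentile of their signals taken as background. Of the 33 Hox genes 10 never exceeded it, namely 7 of the 8 genes of cluster D, 2 of cluster C and 1 of cluster B, and every gene of cluster A did on some array. Cluster D also had 0 genes above the array median on 3 or more arrays. Its median per array was 8.25 to 20.65 on 11 arrays and 100.35 on Nras GFPhigh replicate 2, where Hoxd8 read 307.8, Hoxd13 236.4, Hoxd9 209.5 and Hoxd12 141.5, all above the array's median of 129.6. On that array the background was 615.5, against 29.4 to 66.9 on the other 11, so that 0 of the 8 genes exceeded it there.

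**Figure D5:**
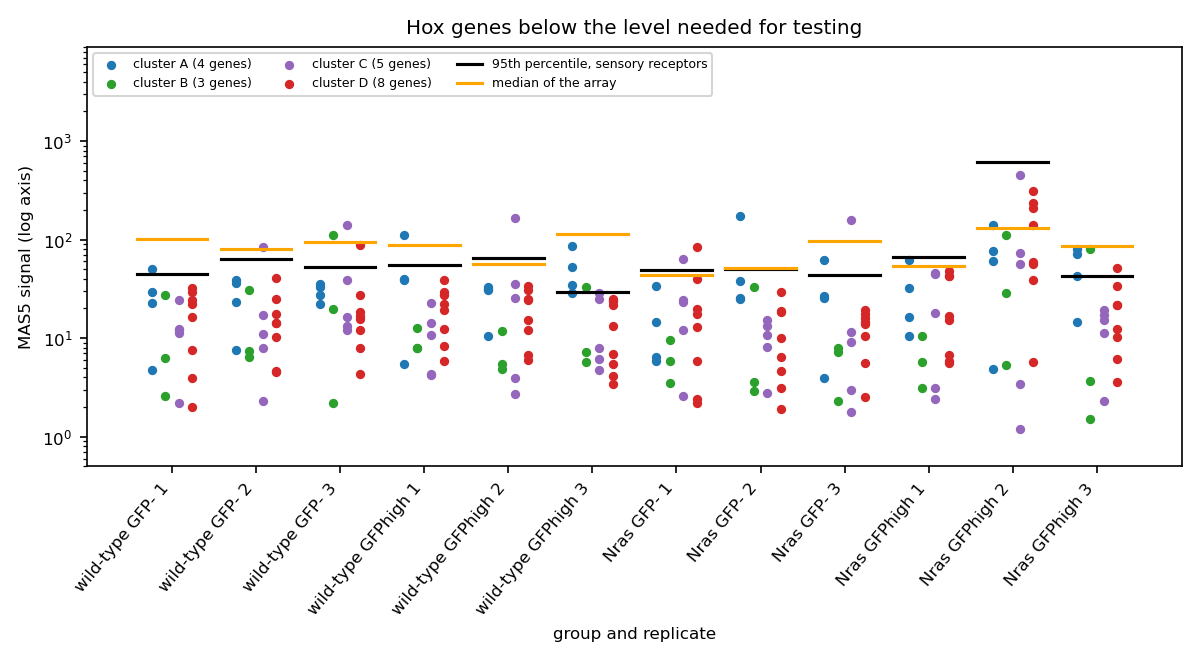
Signal (log axis) of the 20 untested Hox genes on each array, coloured by cluster, with black lines at the 95th percentile of the 83 sensory receptor probe sets and orange lines at the median of the array. On Nras GFPhigh replicate 2 the points of cluster D and the black line (615.5) are both raised.

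The partners of Hox proteins were read from a fixed list of 9 TALE cofactors, of which 8 were on the array and 6 were tested, with 0 passing the threshold. Meis1, the cofactor that works with Hoxa9 in stem cells, read 1490.7 to 5597.3, and differed by -0.35 ± 0.29 between GFPhigh and GFP- over both genotypes. Pbx2 read 1647.6 to 4640.6. Meis3 read 7.9, 29.2 and 9.3 in wild-type GFP- cells and 179.4, 849.9 and 339.5 in wild-type GFPhigh, which did not overlap, a difference of 4.85 ± 1.41 (limma p 0.0044, adjusted p 1). In Nras cells Meis3 read 123.3, 20.5 and 15.5 in GFP- and 8.6, 530.7 and 186.3 in GFPhigh, which did. Pbx2 was also higher without overlap in wild-type GFPhigh, making 2 of 6 cofactors where 5.3% of all genes were so. At an unadjusted limma p under 0.05 in wild-type cells, 1 of 6 passed, against 2.2% of all genes.

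Of 22 regulators of Hox transcription 19 were tested, again with 0 passing in any comparison. Kmt2a, the Trithorax methyltransferase that keeps Hox genes on, read 355.4 to 1821. Ezh2, the Polycomb methyltransferase that keeps them off, read 1197.2 to 2877.2 on the 6 GFP- arrays and 262.2 to 937.4 on the 6 GFPhigh arrays with no overlap, a difference of -1.99 ± 0.42 with a limma adjusted p of 0.217. Mllt3, a partner of Kmt2a in leukaemia fusions that reads active chromatin, was separated the other way, at 5273.6 to 7078 on the GFP- arrays and 7585.7 to 10678.8 on the GFPhigh arrays, a difference of 0.62 ± 0.11 with a limma adjusted p of 0.117. Of the 19, 1 was so separated in each direction, where 0.232% of all genes were higher and 0.339% lower. Eed, a partner of Ezh2, read 2119.7 to 4760.9 and differed by -0.001 ± 0.229 by label over both genotypes. Suz12, also a partner, read 926.2 to 5060.7 and differed by -0.86 ± 0.28 with overlap (limma adjusted p 0.454). Cdx1, Cdx2 and Cdx4, which act on Hox genes in the embryo, were untested. Of 10 homeobox genes outside the clusters 7 were tested and 0 passed, and Hhex, needed for early blood progenitors, read 3230.1 to 6086.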

How the data were processed

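Total RNA was measured on 12 Affymetrix arrays. The authors deposited intensity values, linear signals of MAS5 per the submitters' processing notes, which name no version; replicates were not pooled. Of 45101 probe sets, 64 controls, 932 with several symbols and 9160 with none were left out. The log2 of each signal was used, after 3 zeros were replaced by 0.1. For each of 18193 genes the probe set of highest mean was kept, and 12083 above the array's median in at least 3 arrays were tested. limma (lmFit, contrasts.fit, eBayes with an intensity trend) was fitted to all 12 samples with a mean per group and Benjamini-Hochberg adjustment over all tested genes, two-sided. The steps were run on simulated data with the same spread on every array, and so without uneven arrays. That run required only that planted differences were returned on average. The genes described are all Hox cluster genes, with the tested ones given by value, and the lists named. Members and lists were chosen with earlier results of these data known. Alternatives covered scaling, filter, pseudocount, probe sets, design and arrays left out. RefSeq sequences are of GRCm38.p6; the array's own build was not used. P-values test group differences against the spread between the labelled biological replicates, as limma estimates it with all tested genes. Python 3.11.15 with matplotlib 3.10.9, pandas 2.3.3 and numpy 2.4.6 drew the figures, and R 4.3.3 with statmod 1.5.0 and limma 3.58.1 ran the tests.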

Additional observations from a re-analysis of the deposited data

Results flagged for a closer look

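3 probe sets outside the tested genes read at least 4 times their highest wild-type signal on an Nras array and above the sensory receptor background of that array. Hoxc10 read 157.9 on Nras GFP- replicate 3, against at most 35.4 on wild-type arrays and a background of 44. On Nras GFPhigh replicate 2 the second probe set of Hoxd8 read 1857.8, against at most 22.7 on wild-type arrays, and Hoxd3os1, a transcript antisense to Hoxd3, read 1412.4, against at most 26.8. The background of that array was 615.5, the highest of the 12. Each value comes from 1 array.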

How the results depend on the processing

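0 Hox genes passed in any of the 7 comparisons under the alternatives run, with lowest adjusted p values by limma from 0.153 to 1. Over all genes, counts past the threshold moved. For GFPhigh against GFP- over both genotypes, 0 became 8 with array weights, 4 with the mean over probe sets, 2 with median centring, 1 with no filter, 1 with no intensity trend, 6 with the pseudocount of 100, 3 without the uneven arrays and 0 to 16 with an array left out. In Nras cells 0 became 3 with median centring and 0 to 165 with an array left out, and in wild-type cells 4 with array weights. The counts of 16 and 165 both came without Nras GFPhigh replicate 3, as did the 17 given below for GFPhigh cells. That leaves Nras GFPhigh replicates 1 and 2, the arrays with raised granulocyte and stromal sums. For Nras against wild-type over both populations, 1 became 2 with quantile normalization, 0 with every probe set on its own, median centring, no intensity trend, only replicates 1 and 2, without shared probe sets or without the uneven arrays, and 0 to 5 with an array left out. It was 0 to 8 in GFP- and 0 to 17 in GFPhigh cells. A replicate block also gave 0 there and changed no Hox call. Between groups, 3 of 18 same-number correlations exceeded 0.1 (range -0.04 to 0.15), while different-number ones ran from -0.12 to 0.07. The 3 highest were all between replicate 3 arrays (0.113 to 0.152), and no other same-number pair exceeded 0.095. The numbers may pair the samples weakly, which these values do not settle. With median centring the Hox median became -0.37 for the interaction and 0.72 for Nras in GFP- cells, where the median of all genes went from 0.11 to -0.53 and from -0.18 to 0.43. With an array left out it ran from -0.40 to 0.72 for Nras in GFPhigh cells. Of 2138 single-gene values, 47 moved by more than the replicate SD. Many of these values could not move, so the share does not measure stability. A replicate block, no intensity trend, another filter or a fit of only the groups compared leaves a gene's difference as it was. An array left out does not enter comparisons without its group. Where the uneven arrays were left out, 1 Nras GFPhigh array remained, assumed to vary like the others. A fit of only the groups compared cannot give the interaction or the averages, which use all groups. The causes were not tested. Groups of 3 arrays set the precision; low signals limit Hoxb6, Hoxb9, Hoxc4 and the untested genes.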

Other observations

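Some probe sets near the clusters name other transcripts. A probe set naming both Hoxb8 and Hoxb7 read 186.7, 34.5 and 32.8 in wild-type GFP- cells, 978.3, 579.3 and 526 in wild-type GFPhigh, 379.3, 3.6 and 12.7 in Nras GFP-, and 929.9, 188 and 34.8 in Nras GFPhigh. Its wild-type groups did not overlap, its Nras groups did, and it was not tested because its signal names no single gene. Hoxb5os, a transcript antisense to Hoxb5, read 2.2 to 629.6 with no order by group.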
